A study of Mus musculus with 8 samples.

Results

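The genes described here are 10 genes of the blood-brain barrier, listed by name: the transporters *Mfsd2a*, *Slc2a1*, *Slc7a5* and *Slco1a4*, the efflux pumps *Abcb1a* and *Abcg2*, the tight junction genes *Cldn5*, *Ocln* and *Tjp1*, and the VEGF receptor *Kdr*. They are 10 of the 50686 gene identifiers in the count table, and all 10 passed the filter on low counts that left 16018 genes for testing. The study dealt with glucocorticoid signalling in the cell types of the mouse hippocampus, and the libraries used here compare the ventral hippocampus with and without corticosterone, the main glucocorticoid hormone of rodents. Male C57B6/J mice of 8 weeks received either vehicle or 3 mg/kg corticosterone by injection, and the ventral hippocampus was collected 3 hours later. There were 4 mice per group, with 1 library of mRNA per mouse, numbered 1 to 4 for vehicle and 5 to 8 for corticosterone.

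The blood-brain barrier is formed by the endothelial cells of brain capillaries, which seal the gaps between each other with tight junctions, keep vesicular transport low and move nutrients through dedicated carriers while pumping foreign compounds back into the blood. *Mfsd2a* encodes the carrier that brings docosahexaenoic acid into the brain as lysophosphatidylcholine, and it also restrains transcytosis across the endothelium. Pericytes, astrocyte endfeet and Wnt signals from neighbouring cells maintain these properties. Since whole tissue was sequenced, fewer endothelial cells and less RNA per endothelial cell cannot be told apart in any of the values that follow. Nor can RNA of endothelial cells be told apart from RNA of the same genes in other cells.

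Reads assigned to genes ran from 17492159 to 19931987 per library, so that even the least abundant of the 10 genes, *Kdr*, was covered by 80 to 138 reads in each library. *Fkbp5*, a classic glucocorticoid receptor target, was the only 1 of the 16018 genes to pass the edgeR quasi-likelihood test after Benjamini-Hochberg adjustment, a share of 0.00624%. It had 1709 to 2373 normalized counts in vehicle mice and 3177 to 3510 in corticosterone mice (log2 fold change 0.76, SE 0.0968, edgeR adjusted p = 0.0481), and it is named after its value was seen. The library of corticosterone mouse 5 stood apart from those of the other corticosterone mice. Its share of ambiguous reads, which overlap more than 1 gene and are counted for none, was 1.48%, against 1.25% to 1.28%. Its counts rose with GC content by 0.20 on the log2 scale per 10 percentage points, where theirs changed by -0.18 to -0.13. In vehicle libraries 1 to 4 this slope was 0.06, 0.14, 0.18 and -0.08, so that library 5 was nearer to most vehicle libraries and the slope differed between the groups as well. The part of this difference in the results was not tested beyond the fit with the GC content and length trend removed. Without that library 1651 of 16181 genes were called, a share of 10.2%. Hippocampal neuron markers were present in all 8 libraries, as were endothelial markers.

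The 250 bases before the RefSeq start site (assembly GRCm38.p6) are shown for the 4 genes that had an unadjusted p below the 0.05 threshold in the edgeR test, because these are the genes on which the comparison turns. Capitals mark matches to ACGTG, a form of the core of the hypoxia response element, and to CCAAT, each searched on both strands. A CCAAT on the other strand appears as ATTGG in the printed strand. The half-site of the glucocorticoid response element, AGAACA, was searched in the same way, as was the GC box, GGGCGG, which is not marked. *Mfsd2a* lies at chr4:122961189-122961438 (minus strand), *Slc2a1* at chr4:119108495-119108740 (plus strand), *Cldn5* at chr16:18776597-18776846 (plus strand) and *Kdr* at chr5:75978456-75978705 (minus strand). GENCODE places the start of *Slc2a1* 34 bases and that of *Kdr* 3 bases upstream of the RefSeq start, so the ends of these windows lie inside the GENCODE genes. The last 4 bases of the *Slc2a1* window are left out, which leaves 30 bases inside the gene.
Mfsd2a: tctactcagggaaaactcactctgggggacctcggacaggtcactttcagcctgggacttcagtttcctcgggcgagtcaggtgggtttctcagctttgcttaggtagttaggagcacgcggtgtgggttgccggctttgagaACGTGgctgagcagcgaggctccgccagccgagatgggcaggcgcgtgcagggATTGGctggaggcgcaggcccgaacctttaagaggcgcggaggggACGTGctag
Slc2a1: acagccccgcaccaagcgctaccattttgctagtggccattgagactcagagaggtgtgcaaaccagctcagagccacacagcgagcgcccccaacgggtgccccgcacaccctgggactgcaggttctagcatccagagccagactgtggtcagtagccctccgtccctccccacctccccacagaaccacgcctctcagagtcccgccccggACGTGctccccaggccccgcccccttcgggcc
Cldn5: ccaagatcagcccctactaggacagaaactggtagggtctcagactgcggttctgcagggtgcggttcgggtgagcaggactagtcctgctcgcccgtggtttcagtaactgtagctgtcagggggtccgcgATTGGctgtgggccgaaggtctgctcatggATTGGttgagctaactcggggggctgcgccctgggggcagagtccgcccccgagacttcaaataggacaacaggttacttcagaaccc
Kdr: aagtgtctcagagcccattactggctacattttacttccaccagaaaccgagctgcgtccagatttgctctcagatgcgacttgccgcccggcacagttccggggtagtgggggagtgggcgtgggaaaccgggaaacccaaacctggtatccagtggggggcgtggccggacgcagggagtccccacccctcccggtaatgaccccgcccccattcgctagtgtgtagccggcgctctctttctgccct

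The promoters of *Mfsd2a* and *Slc2a1* both hold ACGTG, at 107 and 9 bases before the start in *Mfsd2a* and at 36 bases in *Slc2a1*, where it spans the GENCODE start. Among the 9 genes of the set that had a promoter in the table (12 entries), no other window held these letters, which occur in 16.6% of all 32851 RefSeq promoter windows of this length. The other form of this core, GCGTG, was not searched. Read on either strand, it lies in the windows of *Mfsd2a*, *Slc2a1*, *Kdr* and *Ocln*. The *Mfsd2a* window held 1 CCAAT box at 54 bases before the start, and the *Cldn5* window held 2, at 118 and 88 bases, against a share of 33.8% of all windows. *Slco1a4* and 1 of the *Ocln* entries also held this box. The GC box, in 32.7% of all windows, was found 2 times each in the *Slc2a1* and *Kdr* windows. It was found 1 time in that of *Cldn5* and 0 times in that of *Mfsd2a*. Entries of *Abcg2*, *Ocln* and *Tjp1* held it as well. The half-site AGAACA was in none of the 12 entries, against 16.1% of all windows, which says only that these letters are absent from these 250 bases. Not every entry lies at the GENCODE start of its gene. The *Abcb1a* entry (chr5:8566841-8567090) lies far upstream of the gene, which begins at 8660077. The *Tjp1* entry (chr7:65371245-65371494) lies inside the gene (65296165-65527781), and some *Abcg2* entries also lie inside theirs. For these entries the bases before the GENCODE start were not searched. For *Slc7a5* no promoter is shown.

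Per length of exon, the carriers for glucose and large neutral amino acids were the most abundant of the 10 genes and the VEGF receptor the least. In vehicle mice *Slc2a1* stood at 28.2 ± 6.52 CPM per kilobase of exon (SD, n = 4), followed by *Slc7a5* at 20.4 ± 2.45, *Mfsd2a* at 15.0 ± 2.84, *Cldn5* at 11.7 ± 2.70 and *Tjp1* at 11.1 ± 1.02. The ranges of neighbours in this upper part of the order overlapped. *Abcb1a* (3.39 ± 0.256) and *Slco1a4* (2.83 ± 0.323) came next and also overlapped with each other, though not with the genes on either side. *Ocln* (2.18 ± 0.209), *Abcg2* (1.68 ± 0.121) and *Kdr* (0.727 ± 0.0624) each had a range of their own. On the same scale, *Mfsd2a* was at 22.02 ± 2.21 in corticosterone mice, beside the mean of *Slc7a5* there (19.6 ± 1.91).

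**Figure D1:**
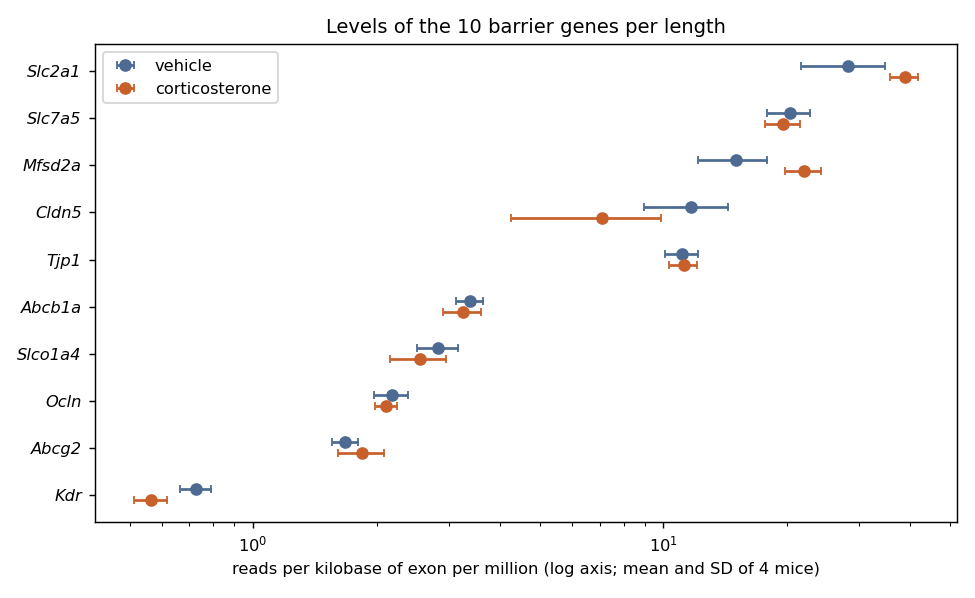
Level of each barrier gene in CPM per kilobase of exon (x axis, logarithmic), with points for the mean and bars for the SD of 4 vehicle mice (blue) and 4 corticosterone mice (orange). *Slc2a1* is the highest in both groups and *Kdr* the lowest, at 0.727 in vehicle mice.

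*Mfsd2a* (ENSMUSG00000028655, mm10 chr4:122946850-122961188, minus strand) had a higher count in every corticosterone mouse than in any vehicle mouse. Its normalized read counts, scaled to the mean library size, were 817, 644, 600 and 529 in vehicle mice 1 to 4 and 1075, 943, 934 and 844 in corticosterone mice 5 to 8. Vehicle mouse 1 was the highest of its group and corticosterone mouse 5 the highest of all, and the closest pair of values between groups, 817 and 844, lay nearer to each other than to their own group means. The means were 647 ± 123 and 949 ± 95.3 (SD, n = 4), a log2 fold change of 0.55 (SE 0.122, 95% interval 0.29 to 0.82). This difference did not pass the edgeR quasi-likelihood test after Benjamini-Hochberg adjustment (p = 5.87e-04, adjusted p = 0.239), while the exact permutation test gave p = 0.0286, the smallest value that 4 against 4 mice allow. *Mfsd2a* ranked 37 among the 16018 genes by its edgeR p.

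The call for *Mfsd2a* depended on the settings. Its adjusted p was 0.0153 with DESeq2, the tool of the study, 0.00571 without a filter on low counts, 0.0292 with the GC content and length trend of each library removed, and 0.0184 with each library's percentage of ambiguous reads in the model. It did not pass with limma-voom (0.221), when each library had to hold 10 or more reads of a gene (edgeR, 0.254) or with the size factors of DESeq2 in edgeR (0.240). Leaving out vehicle library 1 gave a log2 fold change of 0.68 and an adjusted p of 0.0410, and leaving out corticosterone library 5 gave 0.49 and 0.0248 (edgeR). Leaving out any other library kept the direction, and the adjusted p reached up to 0.715.

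*Slc2a1* (ENSMUSG00000028645, chr4:119108711-119137983, plus strand), which encodes the glucose transporter GLUT1, shared this pattern except in 1 vehicle mouse. Its normalized counts were 2511, 1781, 1791 and 1482 in vehicle mice and 2690, 2428, 2852 and 2432 in corticosterone mice. Vehicle mouse 1, again the highest of its group, lay above corticosterone mice 6 and 8, so that the groups overlapped. The means were 1891 ± 438 and 2601 ± 208 (SD, n = 4), with a log2 fold change of 0.46 (SE 0.130, 95% interval 0.18 to 0.74), which did not pass the edgeR test (p = 0.00377, adjusted p = 0.394; exact permutation p = 0.0857). Without vehicle library 1 the groups no longer overlapped and the log2 fold change was 0.62 (edgeR, adjusted p = 0.0410), and without corticosterone library 5 it was 0.44 (adjusted p = 0.0468). With the percentage of ambiguous reads in the model it was 0.73 (edgeR, adjusted p = 0.125). An antisense gene, *Gm12868*, covers 2.99% of the *Slc2a1* exons.

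*Slc7a5* (ENSMUSG00000040010, chr8:121881150-121907694), the large neutral amino acid transporter LAT1, had overlapping groups. Its normalized counts were 1440, 1453, 1659 and 1233 in vehicle mice and 1513, 1268, 1507 and 1281 in corticosterone mice. The corticosterone values all lay inside the vehicle range, with a log2 fold change of -0.05 (95% interval -0.26 to 0.15; edgeR, adjusted p = 0.837). The direction turned with the GC content and length trend removed (0.05) and with the percentage of ambiguous reads in the model (0.22). *Slco1a4* (ENSMUSG00000030237, chr6:141805440-141856199), an organic anion transporter of the polypeptide family, was measured at 337, 354, 302 and 398 in vehicle mice and at 240, 334, 342 and 341 in corticosterone mice. Corticosterone mouse 5 was the lowest of all 8 mice, while the other corticosterone mice fell within the vehicle range. The log2 fold change was -0.15 (95% interval -0.42 to 0.13; edgeR, adjusted p = 0.667). It was -0.04 without corticosterone library 5, -0.26 with the GC content and length trend removed and -0.58 with the percentage of ambiguous reads in the model (edgeR, adjusted p = 0.126). Other genes, among them members of the same family, share 1.61% of the 50-base stretches of *Slco1a4*, which are shorter than the reads.

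**Figure D2:**
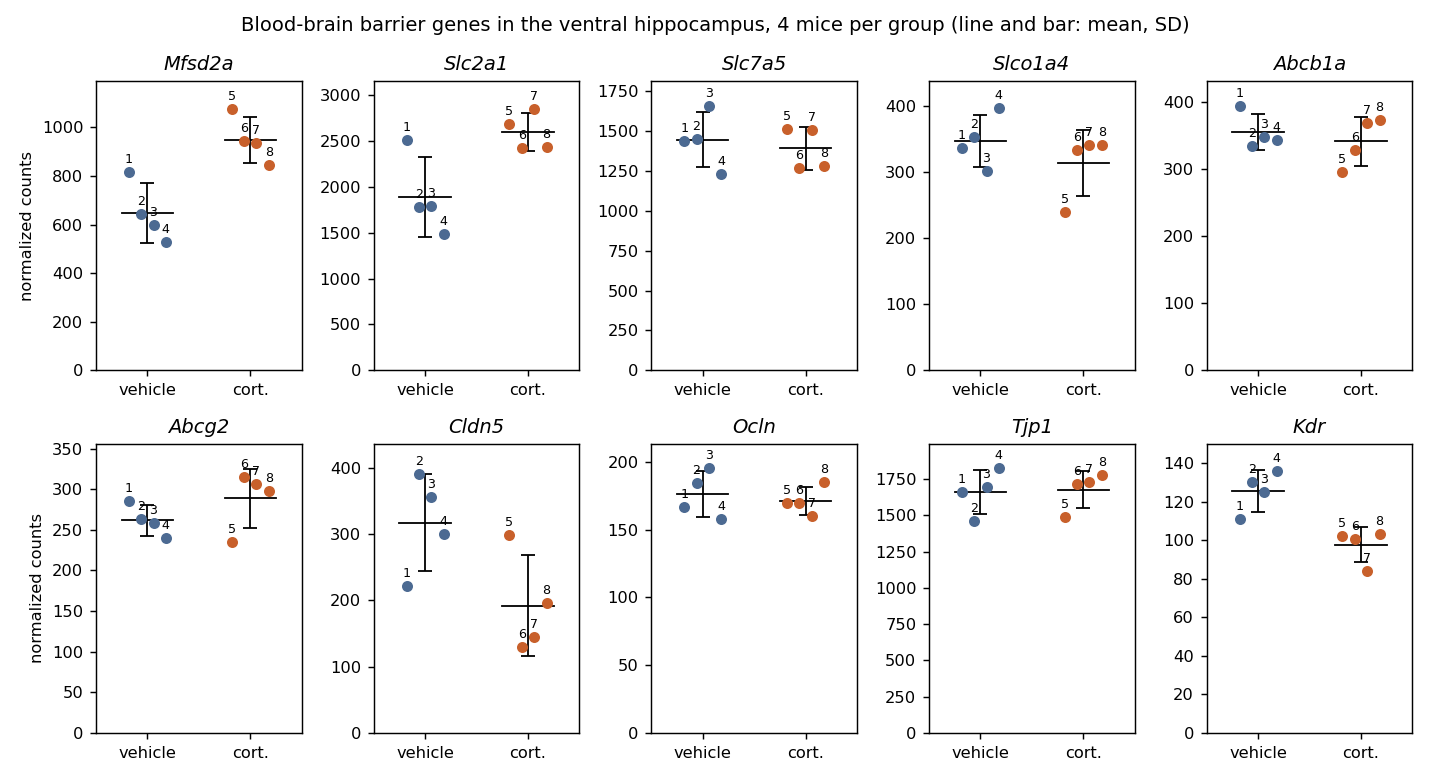
Normalized read counts (y axes from 0) of the 10 barrier genes in 4 vehicle mice (blue, 1 to 4) and 4 corticosterone mice (orange, 5 to 8), with a line for the mean and a bar for the SD. The groups separate without overlap for *Mfsd2a* (vehicle up to 817, corticosterone from 844) and *Kdr* (vehicle from 111, corticosterone up to 103).

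Both efflux pumps had overlapping groups. *Abcb1a* (ENSMUSG00000040584, chr5:8660077-8748575), which encodes P-glycoprotein, had normalized counts of 395, 335, 348 and 344 in vehicle mice and 295, 329, 369 and 373 in corticosterone mice. The highest value came from vehicle mouse 1 and the lowest from corticosterone mouse 5, with the rest intermixed. Its log2 fold change was -0.06 (95% interval -0.28 to 0.16; edgeR, adjusted p = 0.837). It was -0.13 with the GC content and length trend removed, -0.19 with the percentage of ambiguous reads in the model and 0.01 without corticosterone library 5. *Abcb1a* is nearly identical in places to *Abcb1b* and *Abcb4*, with 17.6% of its 50-base stretches shared, and 10.1% of its exons lie under *Gm42686* on the opposite strand, so its count is given as uncertain.

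*Abcg2* (ENSMUSG00000029802, chr6:58584523-58695676), the breast cancer resistance protein, was measured at 286, 264, 258 and 240 in vehicle mice. The corticosterone mice had 235, 315, 307 and 298. Mice 6, 7 and 8 were above every vehicle mouse, whereas mouse 5 was below all of them. The log2 fold change was 0.14 (95% interval -0.10 to 0.38; edgeR, adjusted p = 0.646), and it was 0.23 without corticosterone library 5 (adjusted p = 0.137). It was 0.03 with the percentage of ambiguous reads in the model and -0.00066 with the GC content and length trend removed.

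Of the 3 tight junction genes, *Cldn5* had the largest difference in the edgeR fit on all 8 libraries. *Cldn5* (ENSMUSG00000041378, chr16:18776847-18778262, plus strand) encodes claudin-5, the main sealing claudin of brain endothelium. Its normalized counts were 222, 390, 355 and 300 in vehicle mice and 298, 129, 144 and 196 in corticosterone mice. Mice 6, 7 and 8 lay below every vehicle mouse, corticosterone mouse 5 lay inside the vehicle range, and vehicle mouse 1 was the lowest of its group. The means were 317 ± 73.2 and 192 ± 76.5 (SD, n = 4), a log2 fold change of -0.72 (SE 0.237, 95% interval -1.23 to -0.21) that did not pass the edgeR test (p = 0.00973, adjusted p = 0.472; exact permutation p = 0.0571).

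*Cldn5* was the gene of the set whose value moved most with the processing. Without corticosterone library 5 its log2 fold change was -1.01 (edgeR, adjusted p = 0.0134), and the groups did not overlap. With the GC content and length trend removed it was -0.56, and with the percentage of ambiguous reads in the model it was -0.19 (edgeR, adjusted p = 0.838). That percentage was 1.40% to 1.67% in vehicle libraries and 1.25% to 1.48% in corticosterone libraries, so it differed between the groups, and its part in the *Cldn5* difference was not tested beyond this fit.

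*Ocln* (ENSMUSG00000021638, chr13:100496507-100552718), which encodes occludin, had normalized counts of 167, 184, 196 and 158 in vehicle mice and 170, 169, 160 and 185 in corticosterone mice. All corticosterone values lay within the vehicle range, with a log2 fold change of -0.04 (95% interval -0.29 to 0.20; edgeR, adjusted p = 0.896). It was -0.14 with the GC content and length trend removed and 0.09 with the percentage of ambiguous reads in the model. *Tjp1* (ENSMUSG00000030516, chr7:65296165-65527781), which encodes the scaffold protein ZO-1, was measured at 1665, 1461, 1698 and 1828 in vehicle mice and at 1486, 1718, 1730 and 1778 in corticosterone mice. The vehicle range again covered every corticosterone value. *Tjp1* had the narrowest interval of the 10 genes, -0.17 to 0.19 around a log2 fold change of 0.01 (edgeR, adjusted p = 0.960), but its sign turned in 5 of the 15 alternatives, and with the percentage of ambiguous reads in the model it was -0.23, outside that interval.

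*Kdr* (ENSMUSG00000062960, chr5:75932827-75978458, minus strand), the main VEGF receptor of endothelial cells, was lower in each corticosterone mouse than in each vehicle mouse. Its normalized counts were 111, 130, 125 and 136 in vehicle mice and 102, 101, 84.1 and 103 in corticosterone mice. Vehicle mouse 1 was the closest to the corticosterone group, and corticosterone mouse 7 was the lowest. The means were 126 ± 10.8 and 97.6 ± 9.10 (SD, n = 4), a log2 fold change of -0.36 (SE 0.130, 95% interval -0.64 to -0.08). The difference did not pass the edgeR test (p = 0.0152, adjusted p = 0.499), nor any of the 15 alternatives, although the exact permutation test gave p = 0.0286, its smallest possible value.

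Counted together, 0 of the 10 genes passed the edgeR quasi-likelihood test after adjustment. At an unadjusted p below the threshold there were 4, where 9.03% of all genes tested were so: 2 higher genes (*Mfsd2a* and *Slc2a1*), where 4.51% of all genes were higher, and 2 lower genes (*Cldn5* and *Kdr*), where 4.52% were lower. DESeq2 called 1 of the 10, *Mfsd2a*, against 0.406% of the genes it tested. Groups without overlap were found for 2 genes, where 3.66% of all genes had them: 1 higher gene (*Mfsd2a*; 1.99% of all genes) and 1 lower gene (*Kdr*; 1.68% of all genes). The median log2 fold change of the 10 genes was -0.05, beside 0.00 over all genes tested, and the median size was 0.14, beside 0.12. The median of the 10 genes was -0.01 without corticosterone library 5, -0.03 without vehicle library 1, -0.08 with the percentage of ambiguous reads in the model and -0.09 with the GC content and length trend removed.

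**Figure D3:**
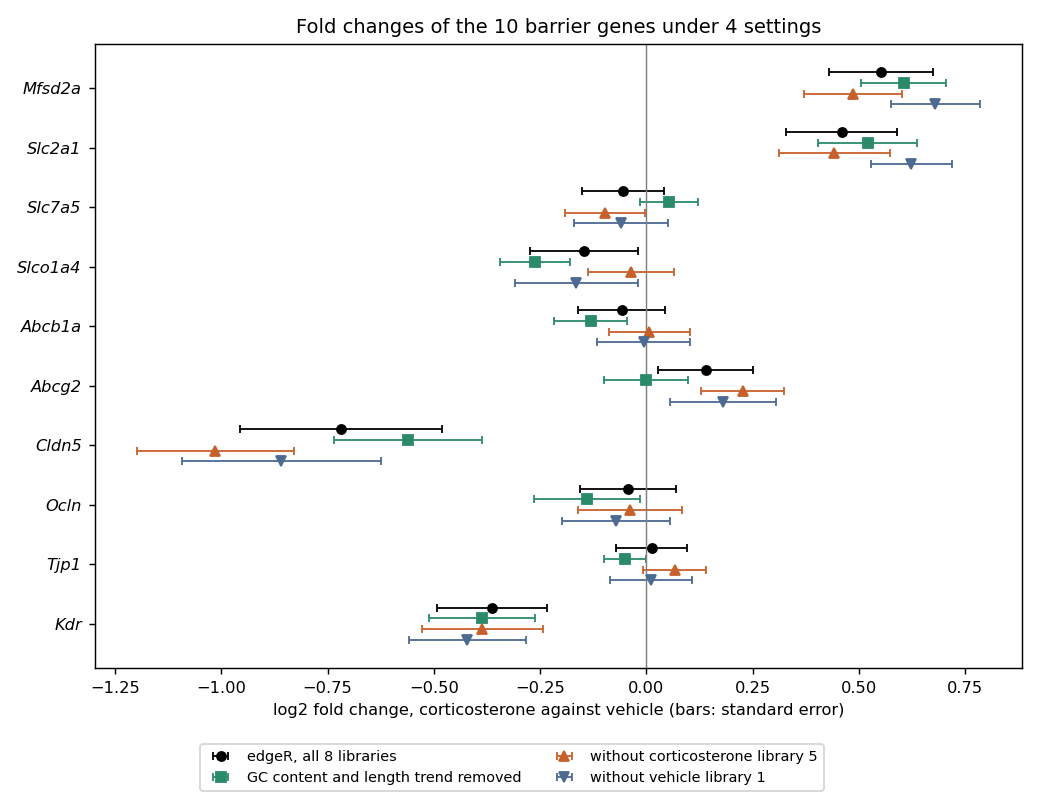
Log2 fold change of corticosterone against vehicle (x axis) for each barrier gene, with bars for the standard error, from edgeR on all 8 libraries, with the GC content and length trend removed, and without corticosterone library 5 or vehicle library 1. *Mfsd2a* lies between 0.49 and 0.68 in all 4 settings and *Cldn5* between -1.01 and -0.56, whereas *Slc7a5*, *Abcb1a*, *Abcg2* and *Tjp1* change sign among them.

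To show the barrier genes relative to markers of the cells that form the barrier, each was set against the mean log2 CPM of 18 endothelial marker genes in the same library. That mean was 3.50 ± 0.0128 in vehicle mice and 3.41 ± 0.102 in corticosterone mice (SD, n = 4), a difference of -0.09 (exact permutation p = 0.143). Its lowest value, 3.30, came from corticosterone mouse 5. Relative to this mean, *Mfsd2a* was at 1.91, 1.59, 1.49 and 1.29 in vehicle mice and at 2.51, 2.25, 2.07 and 2.04 in corticosterone mice on the log2 scale. The difference between the groups was 0.65, without overlap. *Slc2a1* was at 3.52, 3.05, 3.07 and 2.78 in vehicle mice and at 3.84, 3.61, 3.68 and 3.57 in corticosterone mice, so its groups no longer overlapped on this scale and differed by 0.57. Both had an exact permutation p of 0.0286, not adjusted over the 10 genes compared.

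*Kdr*, in contrast, overlapped once set against the endothelial mean. Its difference was -0.27 (exact permutation p = 0.0857), with vehicle mouse 1 at -0.95 inside the corticosterone range of -1.37 to -0.85, and it was -0.16 without corticosterone library 7. *Cldn5* differed by -0.68 (exact permutation p = 0.114) with overlap from vehicle mouse 1 and corticosterone mouse 5, and *Abcg2* by 0.22 (exact permutation p = 0.0571). The other 5 genes differed by -0.07 to 0.10. Using the median of the markers in place of their mean left the differences for *Mfsd2a* and *Slc2a1* at 0.69 and 0.61.

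**Figure D4:**
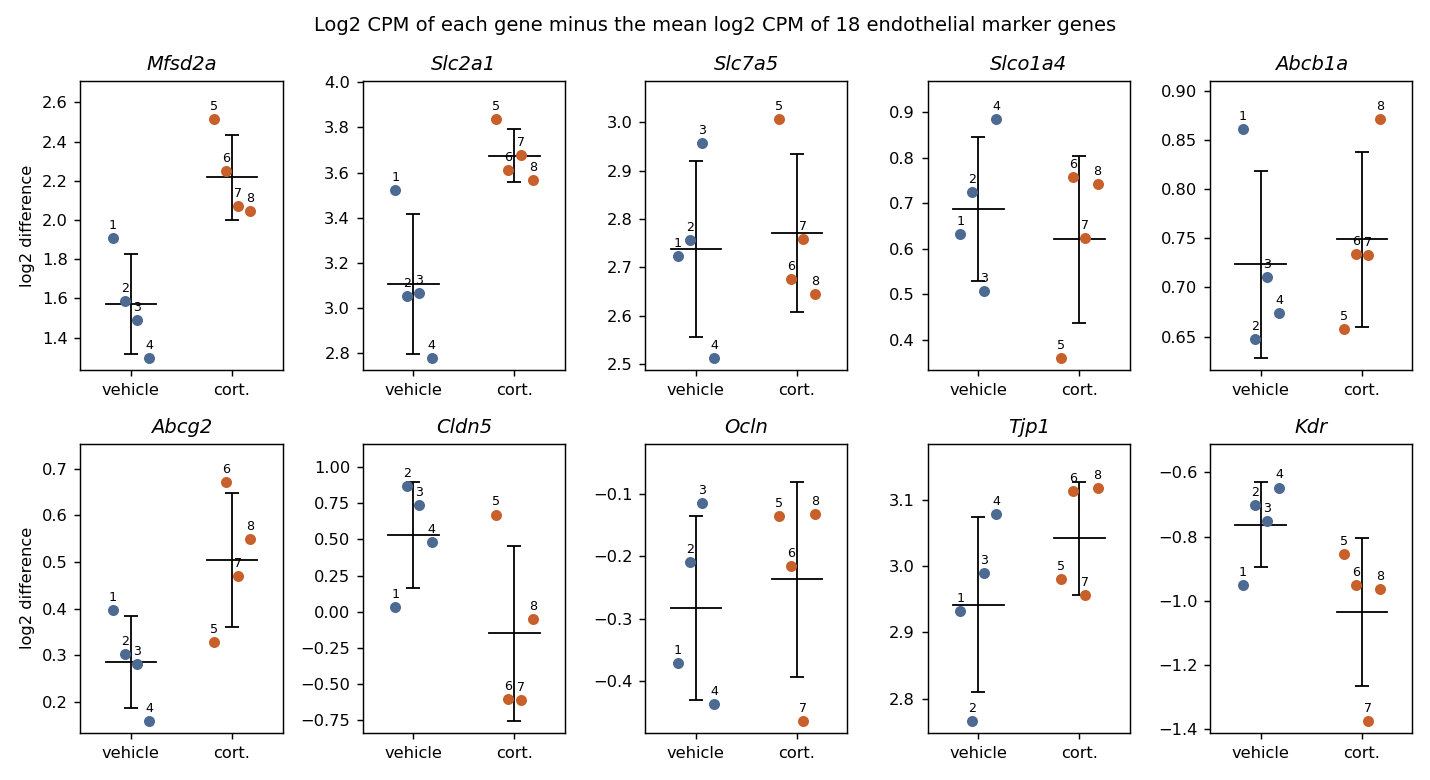
Log2 CPM of each barrier gene minus the mean log2 CPM of 18 endothelial markers (y axes, not starting at 0) in 4 vehicle mice (blue, 1 to 4) and 4 corticosterone mice (orange, 5 to 8), with a line for the mean and a bar for the SD. *Mfsd2a* and *Slc2a1* separate without overlap, with vehicle values up to 1.91 and 3.52, and *Kdr* overlaps.

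*Slc2a1* and *Mfsd2a* varied together from mouse to mouse. Over the 8 libraries the Pearson correlation of their log2 CPM was 0.95, and it was 0.89 after the group means were taken out; the libraries share composition and GC differences, and no test was made. *Slc2a1* ranked 15 among all genes tested in likeness to *Mfsd2a*. The 5 most alike were *Gm11827* (0.98), *Kcnk1* (0.98), *Lao1* (0.97), *Cmtm3* (0.97) and *Mxd4* (0.97). *Gm11827* and *Lao1* were near the lower limit of detection, with vehicle means of 8.34 and 8.84 normalized counts. *Kdr* had a correlation of -0.86 with *Mfsd2a* (-0.54 within groups), and *Cldn5* one of -0.62 (-0.09 within groups).

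Among 18 endothelial markers, none passed the edgeR test after adjustment, 5 had a fold change above 0 and 13 below, and the median log2 fold change was -0.09. That median was -0.16 without corticosterone library 7 and -0.17 with the percentage of ambiguous reads in the model. Their summed level was 265 to 275 CPM in vehicle mice and 231 to 267 CPM in corticosterone mice. *Tie1*, an angiopoietin co-receptor, had lower counts in every corticosterone mouse (99.8 to 145) than in the vehicle mice (146 to 205), and *Mecom*, an endothelial transcription factor, had higher ones (27.3 to 34.7 against 17.6 to 25.5). *Itm2a*, with the highest level per length of the list, overlapped (618 ± 43.8 against 578 ± 51.8, SD, n = 4).

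Endothelial Wnt signalling induces and keeps the barrier phenotype. Of 15 genes in its list, 3 were higher and 2 lower without overlap, beside 1.99% higher and 1.68% lower of all genes tested. *Fzd4*, the endothelial receptor for norrin, had normalized counts of 232 to 387 in vehicle mice and 389 to 484 in corticosterone mice, a log2 fold change of 0.63 (SE 0.145; edgeR, adjusted p = 0.250). *Ndp*, which encodes norrin itself, had 115 to 124 and 67.3 to 91.6, a log2 fold change of -0.50 (edgeR, adjusted p = 0.363). *Apcdd1*, a Wnt inhibitor, had 398 to 493 and 321 to 372, a log2 fold change of -0.34 (edgeR, adjusted p = 0.386). The ligand was lower in the mice in which its receptor was higher. The median of the list was -0.16 (-0.27 without vehicle library 1, -0.09 without vehicle library 3, -0.10 with the GC content and length trend removed and -0.05 with the percentage of ambiguous reads in the model), and *Ctnnb1*, the gene of beta-catenin and the most abundant per length, overlapped. Without corticosterone library 5, 2 genes of the list were called higher and 4 lower by edgeR, in a fit that called 10.2% of all genes (604 higher and 1047 lower), with adjusted p of 0.0178 for *Fzd4*, 0.0381 for *Ndp* and 0.0294 for *Apcdd1*.

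The 23 other barrier transporters had a median log2 fold change of -0.07 (0.05 with the percentage of ambiguous reads in the model and -0.02 with the GC content and length trend removed), with 2 genes higher and 1 lower without overlap, beside 1.99% and 1.68% of all genes tested. *Slc38a5*, a glutamine carrier, had 29.4 to 40.5 normalized counts in vehicle mice and 19.5 to 23.9 in corticosterone mice, a log2 fold change of -0.70 (edgeR, adjusted p = 0.443). *Slc38a2*, a neutral amino acid carrier, had 1907 to 2170 and 2233 to 2543, and *Abcc4*, an efflux pump, 167 to 192 and 202 to 231. *Bsg*, which encodes basigin and is the most abundant per length, overlapped. In the list of 8 caveolae and transcytosis genes 6 had a fold change above 0 and 2 below, with a median of 0.07. That median was 0.02 without corticosterone library 7, 0.03 without vehicle library 3 and 0.12 without vehicle library 2. *Cavin1*, a caveolar coat protein, had 123 to 154 and 164 to 230 normalized counts (log2 fold change 0.43; edgeR, adjusted p = 0.469), and *Pacsin2* overlapped. Of 13 other junction genes 12 were tested, *Cldn3* being too low, and 9 had a fold change above 0 and 3 below, with a median of 0.05 (-0.21 with the percentage of ambiguous reads in the model). The only 1 of these without overlap, beside 3.66% of all genes tested, was *F11r*, which encodes the adhesion molecule JAM-A and was lower (132 to 160 against 80.9 to 130), while *Afdn* overlapped.

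Of 12 VEGF and angiopoietin genes, 8 had a fold change below 0, with a median of -0.14, and 1 of them, *Tie1*, was lower without overlap, beside 1.68% of all genes tested. *Vegfb*, the most abundant per length, had a log2 fold change of -0.14 (edgeR, adjusted p = 0.584), which turned to 0.10 with the GC content and length trend removed and to 0.11 with the percentage of ambiguous reads in the model. In the list for lysophospholipid and docosahexaenoic acid handling, which covers the enzymes and binding proteins around the *Mfsd2a* substrate, 0 of 9 genes had an unadjusted p below the threshold in edgeR, beside 9.03% of all genes tested, 7 had a fold change below 0, and the median was -0.13 (-0.02 with the percentage of ambiguous reads in the model). *Fabp7*, the brain fatty acid binding protein, was the most abundant of them per length of exon. Its normalized counts were 615 ± 84.2 in vehicle mice and 627 ± 93.2 in corticosterone mice (SD, n = 4).

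**Figure D5:**
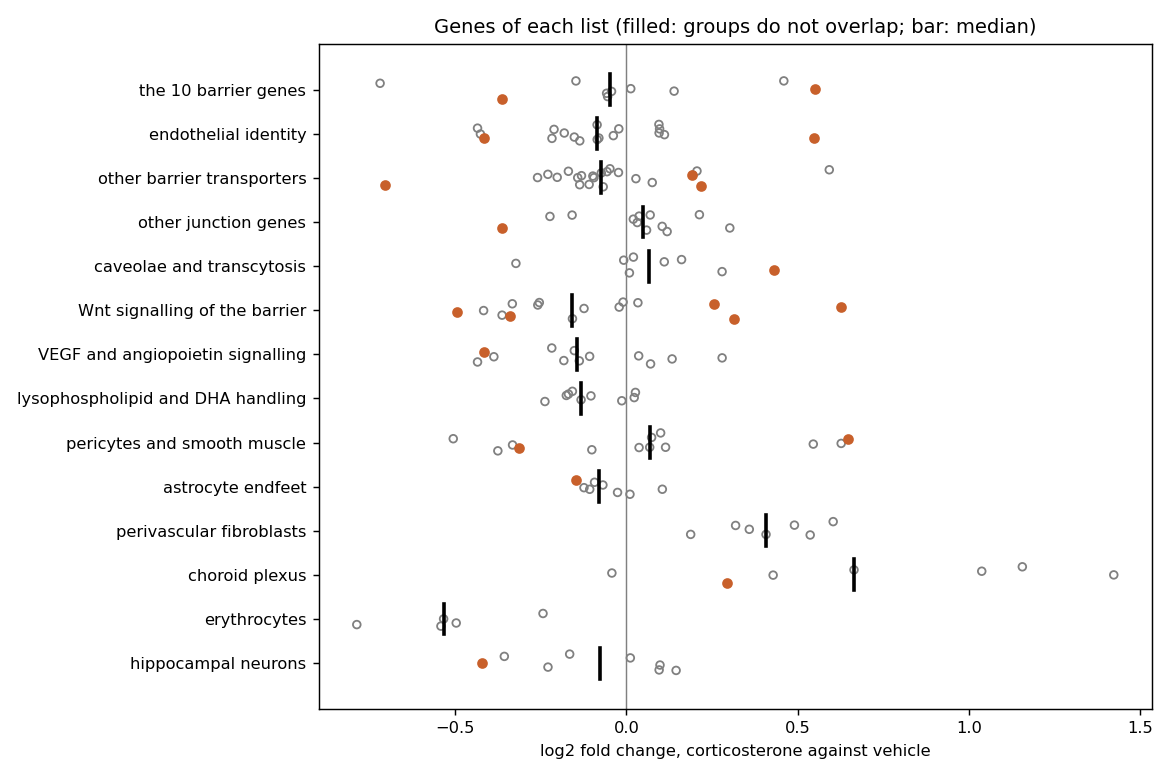
Log2 fold change of corticosterone against vehicle (x axis) for every tested gene of 14 lists, 1 circle per gene, filled where the groups did not overlap, with a bar at the list median. The 10 barrier genes have a median of -0.05, perivascular fibroblast genes 0.41, choroid plexus genes 0.66 and erythrocyte genes -0.53, the last of which was 0.02 without vehicle library 2.

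Markers of other cells in the dissection also differed between the libraries. All 7 perivascular fibroblast genes had a fold change above 0, with a median of 0.41 and a summed level of 98.4 to 186 CPM in vehicle mice and 147 to 263 CPM in corticosterone mice. That median was 0.72 without vehicle library 2 and 0.26 without corticosterone library 6. *Dcn*, which encodes the matrix protein decorin, was the most abundant of them per length, at 883 to 1846 and 1541 to 3031 normalized counts. Choroid plexus genes, of which 7 of 8 were tested, had a median of 0.66. It was 1.18 without vehicle library 1, 0.38 without vehicle library 3, 0.34 without vehicle library 4, 0.39 without corticosterone library 5 and 2.25 with the percentage of ambiguous reads in the model. Their sum was 71.4, 44.6, 27.8 and 24.1 CPM in vehicle mice 1 to 4 and 76.2, 64.4, 35.01 and 49.9 CPM in corticosterone mice 5 to 8, and *Folr1* was the only marker of any list without a read in at least 1 library. Vehicle mouse 1 and corticosterone mouse 5, the highest of their groups in this sum, were also the highest of their groups for *Mfsd2a*, and the part of choroid plexus RNA in the *Mfsd2a* and *Slc2a1* differences was not tested. *Ttr*, the transthyretin gene and the most abundant of the choroid plexus list per length, had 64.2 to 832 normalized counts in vehicle mice and 214 to 846 in corticosterone mice. *Sostdc1* did not overlap (25.4 to 37.3 against 38.0 to 45.6).

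All 5 erythrocyte genes had a fold change below 0, with a median of -0.53 and a sum of 83.1 to 263 CPM in vehicle mice and 80.7 to 105 CPM in corticosterone mice. The sum of 263 CPM came from vehicle mouse 2, and without that library the median was 0.02. With the percentage of ambiguous reads in the model it was -0.07. *Hba-a2*, the most abundant of the erythrocyte genes per length, was at 910 ± 518 and 625 ± 106 normalized counts (SD, n = 4). Of 13 pericyte and smooth muscle genes, 8 had a fold change above 0 and 5 below, with a median of 0.07. That median was 0.22 with the percentage of ambiguous reads in the model and 0.02 without corticosterone library 5. It turned to -0.0029 with the GC content and length trend removed and to -0.0053 without vehicle library 4. *Myh11*, of smooth muscle, had 85.4 to 176 normalized counts in vehicle mice and 185 to 246 in corticosterone mice, and *Pdgfrb*, of pericytes, had 242 to 302 and 205 to 213, both without overlap, while *Vtn* overlapped. Of 8 astrocyte endfoot genes, 2 had a fold change above 0 and 6 below, with a median of -0.08. *Gja1*, which encodes a gap junction connexin, was lower without overlap (3414 to 3762 against 3120 to 3327), and the glutamate transporter *Slc1a2* overlapped. Of 8 hippocampal neuron genes, 4 had a fold change above 0 and 4 below, with a median of -0.08. That median was -0.18 with the percentage of ambiguous reads in the model, -0.13 without vehicle library 1 and -0.02 without vehicle library 3. Among these neuron genes *C1ql2*, of dentate granule cells, was lower without overlap (1213 to 1601 against 881 to 1150), and *Neurod6* overlapped. Over the 142 genes tested of the 13 other lists, 0 passed the edgeR test after adjustment, 14 were higher and 21 lower at an unadjusted p below the threshold (4.51% and 4.52% of all genes tested), and DESeq2, which called 0.406% of all genes, called 2, *Fzd4* (adjusted p = 0.0229) and *C1ql2* (adjusted p = 0.0480). The log2 fold change of *C1ql2* was -0.42, but -0.17 with the GC content and length trend removed (edgeR, adjusted p = 0.630) and -0.15 with the percentage of ambiguous reads in the model (edgeR, adjusted p = 0.682). That model also brought *Tie1* to -0.12, *Apcdd1* to -0.15, *F11r* to -0.23, *Pdgfrb* to -0.19, *Cavin1* to 0.22, *Slc38a2* to 0.10, *Abcc4* to 0.11 and *Sostdc1* to 0.13, while *Fzd4* stood at 0.45 and *Ndp* at -0.42.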

How the data were processed

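Total RNA of the ventral hippocampus was made into stranded mRNA libraries and sequenced as paired reads of 100 bases. Per the labels and the study's methods, the authors aligned reads to mm10 with GSnap and deposited raw read counts per Ensembl gene from HTSeq-count (version 0.6.0). The strand setting and annotation release are not given in the sources used here. The deposited summary rows (ambiguous, unaligned and unassigned reads, together 13.7% to 15.4% of reads) were left out of library sizes. Of 50686 identifiers, 50376 matched GENCODE M21.

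Counts were tested with the quasi-likelihood test of edgeR 4.0.16 (R 4.3.3; TMM, filterByExpr, 4 against 4, no covariate) with Benjamini-Hochberg adjustment over 16018 genes and a threshold of 0.05. Single values were also tested by a two-sided exact permutation test over 70 assignments on log2 CPM (prior count 2). DESeq2 1.42.0, limma 3.58.1 (voom), other filters, size factors, covariates and each library left out were alternatives. Scripts were tested on simulated data. The GC and length trends were removed through splines of 5 degrees of freedom. SDs rest on the spread between mice. The 95% intervals come from the edgeR fit, which combines that spread with the spread of other genes.

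The 10 genes and all lists were chosen with earlier results of these data known. Named genes are the 10 genes, up to 3 genes of each of 13 other lists that passed the test or whose groups did not overlap (smallest p first), the gene of each list with the highest level per length, and the 5 genes most correlated with *Mfsd2a*. *Fkbp5* was added after its value was seen.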

Additional observations from a re-analysis of the deposited data

Results flagged for a closer look

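Among 50 sets of 4 values searched (the 10 genes and library measures), 6 held a value far from the other 3 of its group by Dixon's criterion, where about 2.5 are expected by chance. *Slco1a4* had 240 normalized counts in corticosterone mouse 5, against 334 to 342 in the other corticosterone mice. *Kdr* had 84.1 in corticosterone mouse 7, against 101 to 103. The remaining values belong to the libraries as a whole. In corticosterone library 5, 86.3% of reads were assigned to genes, against 84.6% to 84.8%. Ambiguous reads made up 1.48% of it, against 1.25% to 1.28%, and the slope of its counts on GC content was 0.20 per 10 percentage points on the log2 scale, against -0.18 to -0.13. Ambiguous reads made up 1.40% of vehicle library 4, against 1.64% to 1.67%.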

How the results depend on the processing

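Of 150 fold changes of the 10 genes under 15 alternatives, 127 kept their direction and their side of the threshold, 11 kept their direction and passed it, and 12 turned their direction. The 11 belong to *Mfsd2a*, *Slc2a1* and *Cldn5*. *Mfsd2a* passed with DESeq2 (0.55), without a filter (0.55), with ambiguous reads in the model (0.89) and with the GC content and length trend removed (0.61). Without a filter *Slc2a1* (0.46) and *Cldn5* (-0.72) passed too. Leaving out 1 library at a time gave 0.46 to 0.68 for *Mfsd2a*, 0.35 to 0.62 for *Slc2a1* and -1.01 to -0.57 for *Cldn5*. With ambiguous reads in the model the direction turned for *Slc7a5* (0.22), *Ocln* (0.088) and *Tjp1* (-0.23), and with the GC content and length trend removed for *Slc7a5* (0.053), *Tjp1* (-0.051) and *Abcg2* (-0.00066). Leaving out 1 library gave -0.13 to 0.015 for *Slc7a5*, -0.11 to 0.0068 for *Abcb1a*, -0.097 to 0.0077 for *Ocln* and -0.044 to 0.067 for *Tjp1*. The number of the 10 genes called was 1 with DESeq2, 3 without a filter, 1 with ambiguous reads in the model, 1 with the GC content and length trend removed and 0 to 3 with 1 library left out, when the number without overlap was 2 to 4. It was 4 without corticosterone library 5, where 24.3% of all genes did not overlap, and without vehicle library 1, where 6.34% did not. Over all genes, 64 were called with DESeq2, 79 without a filter, 0 with at least 10 reads in every library, 38 with ambiguous reads in the model, 19 with the GC content and length trend removed and 0 to 1651 with 1 library left out (1651 without corticosterone library 5 and 19 without vehicle library 1, the same libraries without which 3 and 2 of the 10 genes were called). The cause of these changes was not tested. Of 255 list medians 15 moved by more than the spread between mice. Of 90 values relative to endothelial markers 85 kept their direction and 5 turned, all of genes that differed little: *Slc7a5* without vehicle library 4 (-0.041) or corticosterone library 5 (-0.044), *Slco1a4* without corticosterone library 5 (0.020), *Abcb1a* without corticosterone library 8 (-0.015) and *Ocln* without vehicle library 4 (-0.0054). No paired analysis was possible because the labels number vehicle mice 1 to 4 and corticosterone mice 5 to 8. The limits are 4 mice per group and 1 corticosterone library that stands apart; the lowest of the genes, *Kdr*, rests on 80 to 138 reads.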
